A study of Homo sapiens with 6 samples.

Results

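V5-GSE1 peaks were examined at 10 genes of retinoid biology in the NB4 line of human acute promyelocytic leukaemia (APL), whose t(15;17) translocation fuses PML to RARA. The genes were PML, RARA, RARB, RARG, RXRA, TGM2, DHRS3, CYP26A1, NRIP1 and PRAM1, which are 10 of 20033 protein-coding genes of GENCODE on chromosomes 1 to 22, X and Y. A peak was assigned to a gene when it overlapped the gene span extended by 50 kb on each side, called the gene window here. By this rule the windows held 41 of 21401 peaks in DMSO and 33 of 13233 peaks in MC2580. The rule used positions and no score.

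Chromatin immunoprecipitation and sequencing (ChIP-seq) with a V5 antibody was carried out on NB4 cells transduced with a lentiviral pLEX_307 vector. GSE1 is a nuclear protein found in complexes with the histone demethylase LSD1. The cells expressed a V5-tagged GSE1 coding variant and were treated for 24 h with DMSO or with the LSD1 inhibitor MC2580 at 2 µM. Cells carrying the empty vector (EV), with no treatment given, provided a control ChIP, and each of the 3 cell populations had 1 ChIP library and 1 input library. The protein was exogenous and overexpressed, and whether the transduced cells were 1 clone was not given in the sources used here. The data analysed were the 2 peak lists of the GSE1-expressing cells, with positions in hg38. Each peak carries a score, which is minus 10 times the log10 of the peak caller's p-value, so that the calling threshold equals a score of 50. Without replicates, and with read depth unknown, no test between the conditions was possible, and every difference below is a difference between these libraries. Both lists used the same EV library as background, and peaks common to both lists are therefore not independent. Peak lists hold no expression values, so that the identity of the cells could not be checked against marker genes here. NB4 cells carry normal and rearranged copies of PML and RARA, and the copies cannot be told apart in these data.

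Retinoic acid acts through nuclear receptors that pair a retinoic acid receptor (RARA, RARB or RARG) with a retinoid X receptor such as RXRA. The pair sits on direct repeats of a short DNA word, typically spaced by 5 bases (DR5), binds corepressors without ligand and exchanges them for coactivators when retinoic acid arrives. In APL the PML-RARA fusion protein holds such genes repressed, and pharmacological retinoic acid releases the block and lets the cells differentiate towards granulocytes. RARB, DHRS3 and CYP26A1 are textbook direct targets of the receptors. TGM2 and PRAM1 are known to be induced when APL cells differentiate under retinoic acid.

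The sequences on which the positions below rest are shown first. For the 4 genes with an ordinary-width peak within 3 kb of their own transcription start site (TSS), the 300 bases at the centre of the highest-scoring such DMSO peak are given, followed by the centre of the RARB upstream peak, which was added after its score was seen. All are plus-strand hg38 sequence, and capitals mark the receptor core word AGGTCA on either strand. The RARA stretch is chr17:40322540-40322839, the RARG stretch chr12:53217265-53217564, the RXRA stretch chr9:134371854-134372153, the TGM2 stretch chr20:38168339-38168638 and the RARB stretch chr3:24678500-24678799.
RARA intron 1: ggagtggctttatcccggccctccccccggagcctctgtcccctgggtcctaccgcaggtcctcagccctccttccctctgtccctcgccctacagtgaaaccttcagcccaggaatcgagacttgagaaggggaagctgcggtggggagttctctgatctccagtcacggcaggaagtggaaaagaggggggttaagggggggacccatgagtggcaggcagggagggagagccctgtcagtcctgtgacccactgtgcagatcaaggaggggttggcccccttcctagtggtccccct
RARG intron 3: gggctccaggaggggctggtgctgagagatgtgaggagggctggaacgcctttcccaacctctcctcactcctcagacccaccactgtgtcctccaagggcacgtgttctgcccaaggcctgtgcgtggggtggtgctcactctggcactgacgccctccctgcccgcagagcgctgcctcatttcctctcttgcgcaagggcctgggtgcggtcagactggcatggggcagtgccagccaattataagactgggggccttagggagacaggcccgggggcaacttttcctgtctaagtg
RXRA intron 1: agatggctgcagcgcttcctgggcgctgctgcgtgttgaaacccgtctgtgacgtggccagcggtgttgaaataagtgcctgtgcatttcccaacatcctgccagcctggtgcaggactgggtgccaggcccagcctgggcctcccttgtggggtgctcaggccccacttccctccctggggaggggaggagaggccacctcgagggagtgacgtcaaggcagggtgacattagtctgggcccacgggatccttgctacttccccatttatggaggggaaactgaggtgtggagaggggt
TGM2 upstream: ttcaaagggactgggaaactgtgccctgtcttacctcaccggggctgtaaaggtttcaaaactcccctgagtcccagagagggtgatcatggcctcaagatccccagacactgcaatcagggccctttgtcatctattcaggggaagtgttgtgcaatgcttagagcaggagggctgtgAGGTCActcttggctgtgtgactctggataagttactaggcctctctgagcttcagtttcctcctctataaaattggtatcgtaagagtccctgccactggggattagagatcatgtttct
RARB upstream: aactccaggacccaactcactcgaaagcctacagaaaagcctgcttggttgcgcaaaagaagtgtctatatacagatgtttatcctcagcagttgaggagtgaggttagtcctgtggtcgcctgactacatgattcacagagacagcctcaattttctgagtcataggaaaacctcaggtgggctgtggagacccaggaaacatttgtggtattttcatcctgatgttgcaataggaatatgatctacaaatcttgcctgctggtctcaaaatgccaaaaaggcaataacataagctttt
The TGM2 stretch held 1 AGGTCA word, and no capitals appear in the other 4 stretches.

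DR5 repeats were searched as the word AGGTCA, or its variants with the letters GGGTCA, the letters AGTTCA or the letters GGTTCA, followed, after 5 bases of any kind, by another of these 4 words, on both strands. Because AGGTCA is one of the 4 words, a repeat can also count as an AGGTCA match. Among the peaks of the 10 genes outside the PRAM1 window, 1 held such a repeat, the DMSO peak in DHRS3 (chr1:12604603-12604619, minus strand). The promoter stretches of RefSeq (GRCh38.p14, from 250 bases before to 50 bases after each gene start) held it for RARB (chr3:25428210-25428226, plus strand) and for CYP26A1 (chr10:93073803-93073819). Each repeat is shown with 8 bases on either side, in the direction of the gene, with the repeat in capitals. In CYP26A1 the repeat reads as direct on the opposite strand.
DHRS3 DR5: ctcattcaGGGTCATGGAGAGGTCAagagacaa
RARB DR5: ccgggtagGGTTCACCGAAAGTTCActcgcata
CYP26A1 DR5: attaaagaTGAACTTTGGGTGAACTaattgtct
The RARB repeat ended 36 bases before the gene start and the CYP26A1 repeat 73 bases before it. No peak of either list lay on these latter stretches. The nearest DMSO peak was 175331 bp from the RARB repeat and 41376 bp from the CYP26A1 repeat, and the nearest MC2580 peaks were 236664 bp and 260469 bp away.

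In DMSO, 8 of the 10 genes had at least 1 V5-GSE1 peak in the window, against 47.9% of all protein-coding genes. The exceptions were PML and NRIP1. In MC2580, 4 of the 10 genes had a peak (RARB, RXRA, TGM2 and PRAM1), against 27.3% of all genes, and in the same 4 genes a DMSO peak overlapped an MC2580 peak by at least 1 bp, against 19.3%. The other 4 of the 8 genes with a DMSO peak (RARA, RARG, DHRS3 and CYP26A1) had no MC2580 peak. This was the case for 22.8% of all genes, or 4563 of the 9601 genes with a DMSO peak. Neither list had a peak for 2 of the 10 genes, against 49.9% of all genes. Windows differ in length, and 7 of the 10 were longer than the median of 127.5 kb over all genes, so that these shares are not matched for length.

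Counts per window differed widely among the genes, as the bar chart of peak numbers shows. PRAM1 held 14 DMSO peaks and 27 MC2580 peaks, and was the only one of the 10 genes with more peaks in MC2580, which occurred for 4.62% of all genes. RXRA with 9 DMSO peaks and RARA with 7 followed, then TGM2 with 4, RARG with 3, RARB with 2, and DHRS3 and CYP26A1 with 1 each. For 7 of the 10 genes the MC2580 list held fewer peaks than the DMSO list, against 38.9% of all genes. Only genes with a DMSO peak can meet this rule. Of those, 7 of 8 did here, beside 7792 of 9601 among all protein-coding genes. PML and NRIP1 held none in either list.

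**Figure D1:**
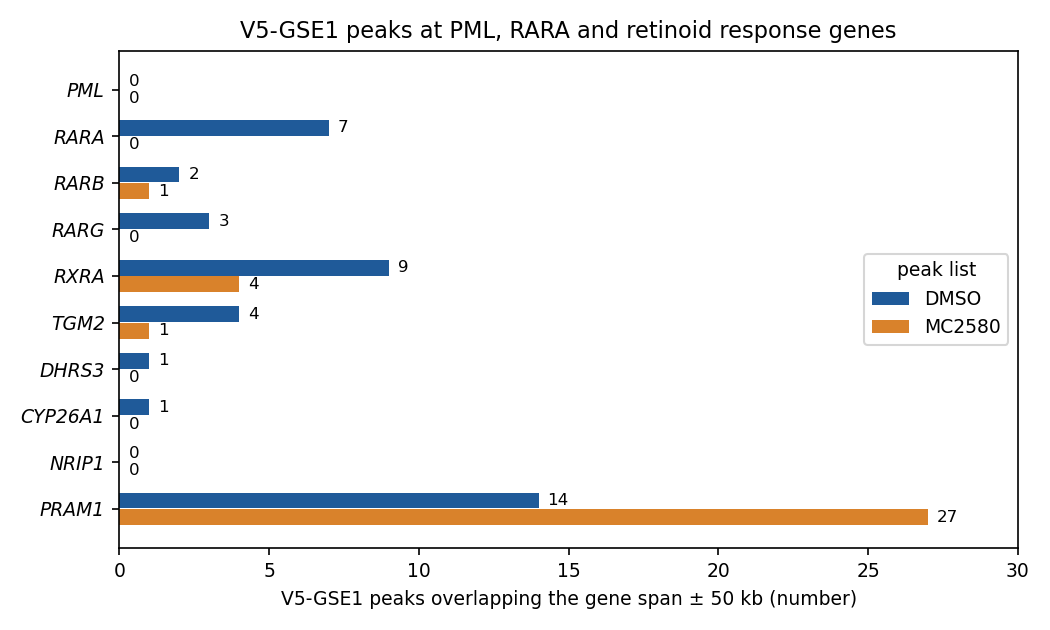
Number of V5-GSE1 peaks (horizontal axis) in the window of each of the 10 genes (gene span extended by 50 kb on each side), in the DMSO list (blue) and the MC2580 list (orange), 1 library each. PRAM1 stands apart with 14 and 27 peaks, RARA has 7 and 0, and PML and NRIP1 have 0 in both.

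Because PRAM1 supplied 14 of the 41 DMSO peaks and 27 of the 33 MC2580 peaks, totals were also taken without it, an alternative chosen after seeing the data. Over all 10 genes the peak number in MC2580 divided by that in DMSO was 0.805 (exact 95% interval 0.493 to 1.3). The other 9 genes had 27 DMSO and 6 MC2580 peaks, a ratio of 0.222 (0.075 to 0.549), whereas the whole lists had a ratio of 0.618. The whole lists kept the dense region around PRAM1, with 196 DMSO and 253 MC2580 peaks in the 1 Mb centred on it. Values without PRAM1, here and below, are thus set beside lists that still hold this region. The intervals of both ratios cover counting error only and treat peaks as independent draws. Peaks of 1 window lie close together and some recur in both lists, so that the intervals are no test between the conditions. Of the DMSO peaks, 19 of 41 had an MC2580 counterpart (46.3%, Wilson 95% interval 32.1 to 61.3), and 5 of 27 did without PRAM1 (18.5%, 8.18 to 36.7), against 33.6% of the whole DMSO list. Of the MC2580 peaks, 32 of 33 overlapped a DMSO peak (97%, 84.7 to 99.5), and without PRAM1 5 of 6 did (83.3%, 43.6 to 97), against 58% of the whole MC2580 list. In the PRAM1 window, where DMSO peaks covered 94.9% of the bases, an overlap by 1 bp was nearly fixed by that coverage. When the overlap had to reach 50% of both peaks, 8 peaks of each list over all 10 genes were shared. Without PRAM1 the intervals of both shares, which cover counting error only, included the values of the whole lists.

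Outside the PRAM1 window, the 27 DMSO peaks were of ordinary size for the list. Their scores ran from 53.21 to 744.55 with a median of 95.46, against 91.08 for all DMSO peaks, and their widths from 694 to 1786 bp with a median of 997 bp, against 1000 bp. Of these peaks, 16 lay in the gene's own span and 21 had the gene's own TSS as the nearest TSS of any protein-coding gene. By position 13 lay within 3 kb of a TSS of any gene, 3 on an exon, 7 in introns and 4 in intergenic sequence. The 6 MC2580 peaks had scores from 54.69 to 281.36.

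PML encodes the scaffold of nuclear bodies and supplies the front part of the fusion protein. Its window (gene chr15:73994673-74047827, plus strand) held no peak of either list. The nearest DMSO peak (chr15:73935244-73936106, score 64.06) lay 58567 bp from the gene, just outside the window, and the nearest MC2580 peak (score 53.21) lay 139682 bp away. The surroundings were not empty, with 21 DMSO and 8 MC2580 peaks in the 1 Mb centred on the gene.

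RARA, the receptor that the translocation fuses to PML, carried 7 DMSO peaks and no MC2580 peak (gene chr17:40309180-40357643, plus strand). Of these peaks 6 lay inside the gene, all in its first 2 introns, and 4 lay within 3 kb of one of its 10 annotated TSSs. The strongest, at chr17:40322191-40323187 with a score of 184.96, lay in intron 1 across an alternative TSS, and its central sequence is shown above. It stood at percentile 79.6 of the DMSO scores and was thus not among the extreme peaks of the list.
The other RARA peaks near a TSS lay in intron 1 at chr17:40325888-40327086 (score 112.98, 2897 bp from a TSS) and in intron 2 at chr17:40342897-40343782 (53.28, 498 bp) and chr17:40344517-40345613 (80.3, across a TSS). The peak at chr17:40342897-40343782 also lay on the antisense gene RARA-AS1. A further intron 2 peak, at chr17:40333374-40334965, had the second highest score (145.33) and lay 6423 bp from the nearest RARA TSS. The remaining 2 peaks were at chr17:40327829-40328809 in intron 1 (99.73) and at chr17:40303662-40304355 (53.21). The last of these lay upstream of RARA inside CDC6, a DNA replication licensing gene, 2772 bp from a CDC6 TSS and 4825 bp from RARA. The canonical RARA promoter itself had no peak within 3 kb.
The MC2580 peak nearest to any of these 7 was 277323 bp away. Scores of this size were often unmatched in the list as a whole: of 16114 DMSO peaks scoring between 53.21 and 184.96, 76.2% overlapped no MC2580 peak. Having 7 or more DMSO peaks with no MC2580 peak was met by 41 genes, or 0.205% of all protein-coding genes, a description chosen after the RARA counts were seen. Only genes with 7 or more DMSO peaks can meet this rule, and their number is not given here. The 0.205% therefore does not say how often such genes lacked an MC2580 peak. Neighbouring genes can also share peaks. In the 1 Mb centred on RARA there were 22 DMSO and 4 MC2580 peaks.

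**Figure D2:**
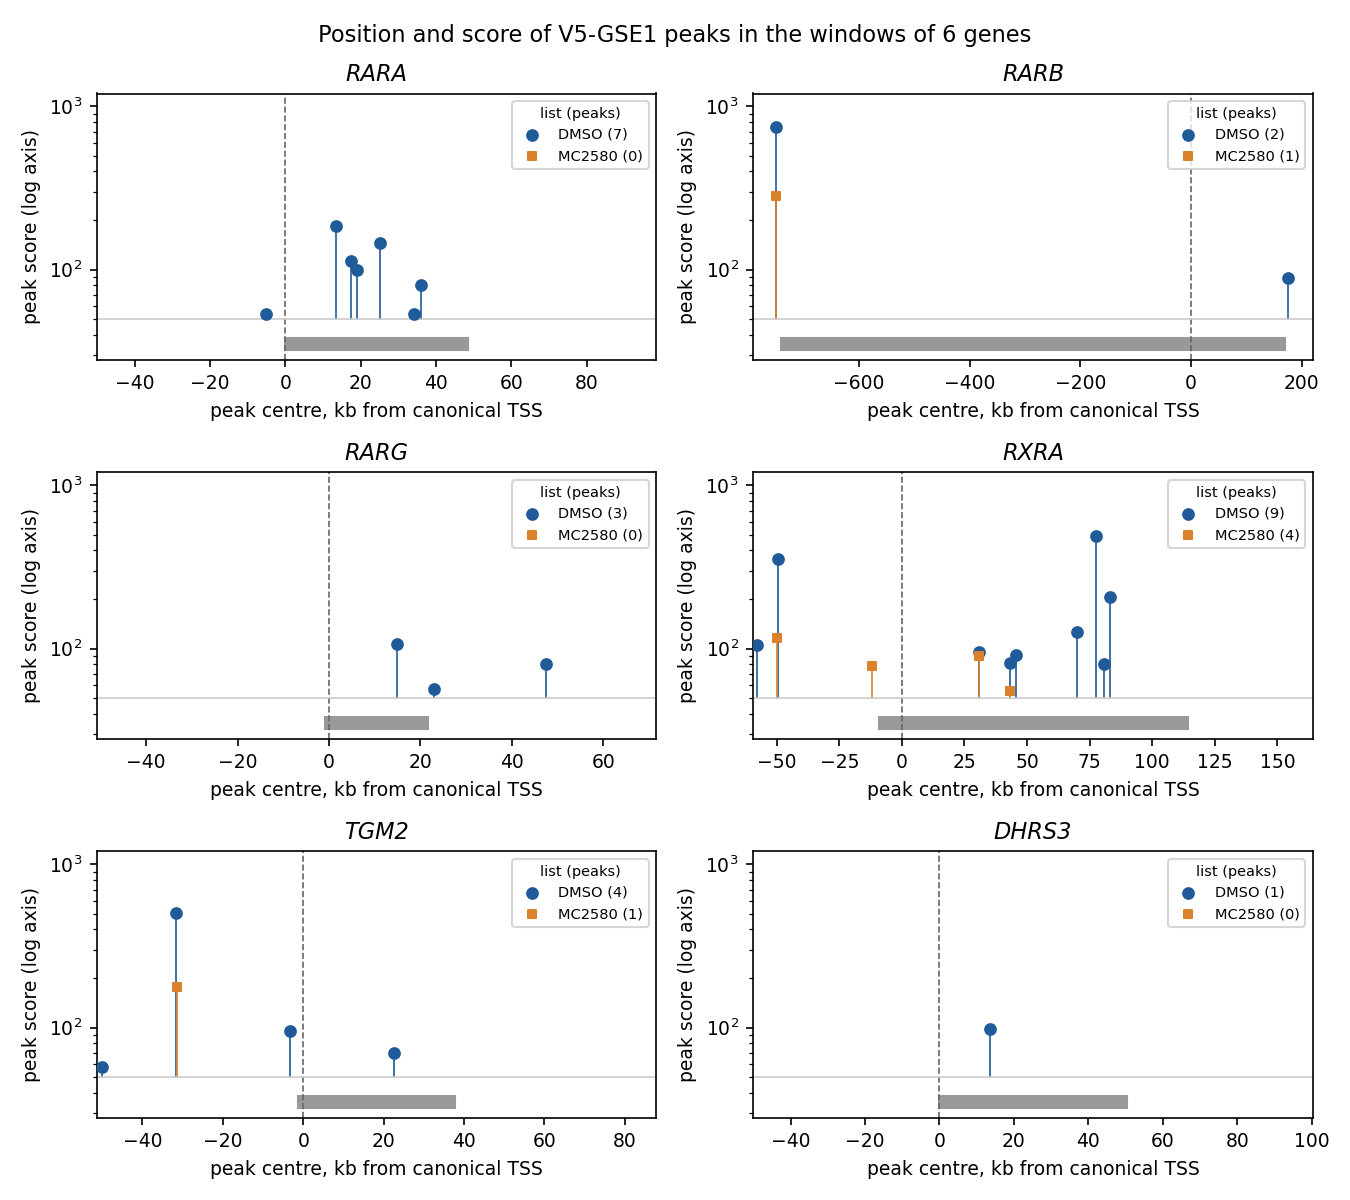
Score (vertical log axis, starting near the threshold of 50) against the position of the peak centre in kb from the canonical TSS, in the direction of transcription (horizontal axis), for RARA, RARB, RARG, RXRA, TGM2 and DHRS3. Blue circles are DMSO peaks, orange squares MC2580 peaks, the grey bar is the gene span and the dashed line the canonical TSS. The 7 RARA peaks are all blue and 6 of them lie over the gene, and in RARB and TGM2 the orange squares lie below the blue circles at the same place.

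RARB, a receptor whose own promoter is a retinoic acid target, had no peak inside its long gene span of 910.046 kb (chr3:24687887-25597932, plus strand). Its 2 DMSO peaks lay beyond the ends of the span. The upstream peak at chr3:24678058-24679240 had a score of 744.55, the highest outside the PRAM1 window, and lay 8647 bp from the first annotated RARB TSS, in an intron of the noncoding gene THRB-AS1. Its centre stood at -749614 bp relative to the canonical RARB TSS. In MC2580 a peak overlapped it over 1045 bp (chr3:24678138-24679182, score 281.36), with the centres 11 bp apart. The downstream DMSO peak at chr3:25603557-25604689 had a score of 89.19, no MC2580 counterpart, and lay 359 bp from a TSS of TOP2B, the gene of DNA topoisomerase II beta. Its distance to the nearest RARB TSS was 102375 bp. Outside the window the nearest peaks were 67034 bp from RARB in DMSO (score 131.32) and 66958 bp in MC2580 (74.21).

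RARG, a receptor known for its role in skin, held 3 DMSO peaks and no MC2580 peak (gene chr12:53210567-53232980, minus strand). The peak in intron 3 (chr12:53216934-53217895, score 107.46, sequence above) lay 1582 bp from one of 18 annotated RARG TSSs. The other 2 lay past the end of RARG and near TSSs of its neighbours. The peak at chr12:53208715-53209608 (56.48) was 1433 bp from a TSS of ITGB7, an integrin subunit, and the peak at chr12:53184010-53185255 (80.59) was 130 bp from a TSS of ZNF740.

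RXRA, the common partner of the retinoic acid receptors, had the most peaks after PRAM1, with 9 in DMSO and 4 in MC2580 (gene chr9:134317098-134440585, plus strand). The highest DMSO score was 486.66, at chr9:134403434-134404703. This peak lay in intron 2 of the canonical transcript but touched an annotated exon outside that transcript, and was counted above as on an exon. It lay 17312 bp from the nearest RXRA TSS, and the MC2580 peak closest to it was 33412 bp away. The next was an upstream peak at chr9:134276150-134277369, 39729 bp from RXRA, with 354.7 in DMSO and 116.55 in MC2580 (chr9:134276128-134277084). The third was at exon 4 (chr9:134408981-134410110, 205.89) and was found in DMSO only.
Within 3 kb of an RXRA TSS lay 2 DMSO peaks, both in intron 1. At chr9:134371500-134372506, across an alternative TSS, the DMSO score was 91.39, with the closest MC2580 peak at a distance of 1478 bp (sequence above, which covers an exon of a transcript with no defined coding sequence). At chr9:134369239-134370109 the scores were 81.17 in DMSO and 54.69 in MC2580 (chr9:134369434-134370022). A further pair in intron 1 had similar scores in both lists, 95.45 at chr9:134356655-134357666 in DMSO and 90.74 at chr9:134356640-134357596 in MC2580. The remaining MC2580 peak, at chr9:134313887-134314714 (score 77.95), lay 2384 bp upstream of an RXRA TSS with its closest DMSO peak 36518 bp away, and was the only MC2580 peak in the 10 windows without a DMSO counterpart. The other 3 DMSO peaks had scores between 81.0 and 125.85, and the most distant of them, at chr9:134268106-134269046 (105.55), lay 48052 bp from the gene, just inside the window.

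TGM2, a protein crosslinking enzyme strongly induced in differentiating APL cells, held 4 DMSO peaks and 1 MC2580 peak (gene chr20:38127385-38166578, minus strand). The strongest was far upstream at chr20:38196038-38197823, 29460 bp from the nearest TGM2 TSS and 20282 bp from a TSS of KIAA1755. Its score was 507.04 in DMSO and 178.34 in MC2580 (chr20:38196200-38197297). The promoter peak at chr20:38168018-38168959 (95.46, 1440 bp upstream of a TSS, sequence above) was found in DMSO only. So was a peak at exon 7 (chr20:38142162-38143122, 70.07). The DMSO peak at chr20:38215003-38215701 (57.03) lay 48425 bp from TGM2, just inside the window, and 2404 bp from a TSS of KIAA1755.

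DHRS3 and CYP26A1, enzymes that draw retinaldehyde back to retinol and degrade retinoic acid, had 1 DMSO peak each and no MC2580 peak. The DHRS3 peak (chr1:12604083-12605071, score 98.6) lay in intron 1, 7775 bp from a DHRS3 TSS (gene chr1:12567910-12618210, minus strand). The centre of the DR5 repeat shown above was 34 bp from its centre. The CYP26A1 peak (chr10:93115195-93115961, score 53.53) was close to the calling threshold and lay 38862 bp from the nearest TSS, past the end of the gene (gene chr10:93073475-93077885, plus strand). The same peak lies in the window of the neighbouring gene CYP26C1.

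NRIP1, a corepressor of nuclear receptors that is itself induced by retinoic acid, had no peak in its window (gene chr21:14961235-15065936, minus strand) and none in the 1 Mb centred on it. The nearest peaks were 1970772 bp away in DMSO and 4146785 bp away in MC2580.

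PRAM1, an adaptor of myeloid cells that PML-RARA represses, was unlike the other 9 genes (gene chr19:8490056-8502640, minus strand). Peaks covered 94.9% of its window in DMSO (106798 bp) and 88.6% in MC2580 (99747 bp), and 96378 bp were covered in both. This shared length is 90.2% of the DMSO and 96.6% of the MC2580 coverage. The whole gene lay under a single DMSO peak 28349 bp wide (chr19:8480287-8508635), with a score of 3100, a value that many of the strongest peaks share and at which scores may not rank peaks. The map of the PRAM1 window shows that the same stretch was split into more and narrower peaks in MC2580, so that the higher number of MC2580 peaks came with a smaller covered length.
Of the MC2580 peaks, 3 lay within 3 kb of a PRAM1 TSS. The first, at chr19:8497140-8508957 (2431.66, the highest of the window), covered the canonical TSS. The second was at chr19:8482707-8491908 (2087.57). The third was at chr19:8492191-8495729 (594.39). Another peak on the gene, at chr19:8495877-8496846, scored 79.54.
Other genes of the window had peaks as strong. A DMSO peak with the same score of 3100 (chr19:8508687-8520488) was on a TSS of ZNF414, and the next highest (2522.96, chr19:8524275-8536740) on a TSS of MYO1F. In MC2580 the second highest score was 2314.32, at chr19:8457992-8473496 on a TSS of HNRNPM. Median scores in the window were 923.925 over the 14 DMSO peaks and 301.45 over the 27 MC2580 peaks, and median widths 5521 bp and 2125 bp. The region extended well past the window, with 196 DMSO and 253 MC2580 peaks in the 1 Mb centred on PRAM1, and the nearest peaks beyond the window were 50897 bp (533.67) and 50469 bp (175.42) from the gene. Peaks were not resolved at the scale of this gene, and a distance from a PRAM1 TSS carries little information there. The number of genomic copies of this region in NB4 cells cannot be read from peak lists, and the inputs were not analysed here.

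**Figure D3:**
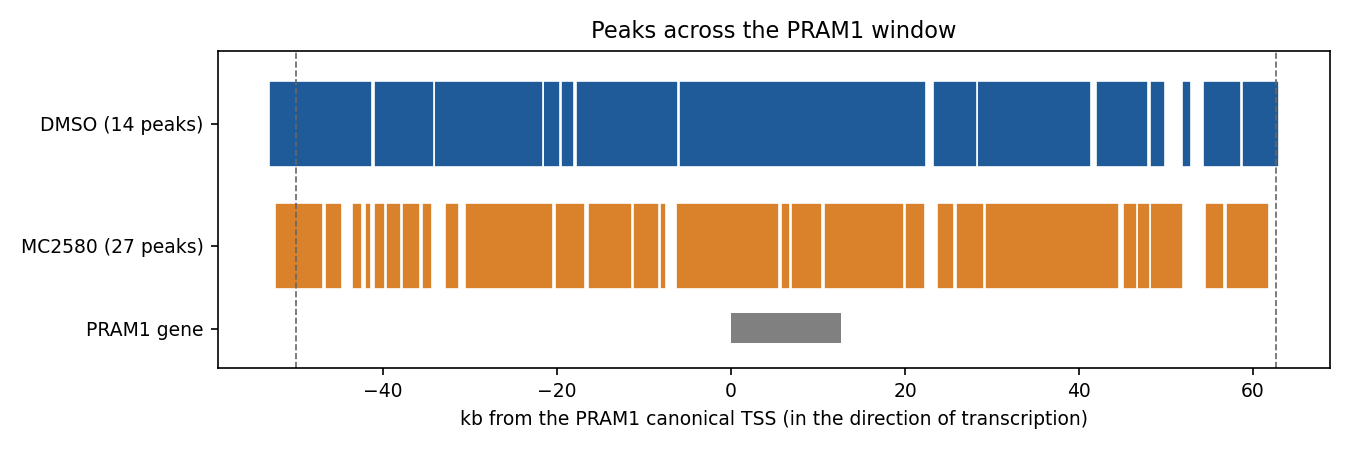
Extent of the peaks across the PRAM1 window, in kb from the canonical TSS in the direction of transcription. Each block is 1 peak (DMSO in blue, MC2580 in orange), white gaps hold no peak, the grey bar is the gene and dashed lines are the window ends. The 14 DMSO peaks cover 94.9% and the 27 MC2580 peaks 88.6% of the window.

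Within 3 kb of an own TSS, 5 of the 10 genes had a DMSO peak (RARA, RARG, RXRA, TGM2 and PRAM1), against 16.1% of all genes, and 2 had an MC2580 peak (RXRA and PRAM1), against 7.87%. Genes with many annotated TSSs have more chances to meet this rule. When only the canonical TSS of each gene counted, TGM2 and PRAM1 remained in DMSO and PRAM1 in MC2580, because the RARA, RARG and RXRA peaks were at alternative starts inside the genes. At a minimum score of 100 there were 3 and 1 genes. Shares of all genes under these stricter rules are not given here, and 16.1% and 7.87% do not apply to them. Whether the 10 genes exceed all genes under these rules is therefore not known.

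For 5 pairs outside the PRAM1 window, 1 in RARB, 3 in RXRA and 1 in TGM2, the scores can be set side by side, as the scatter plot of paired scores shows. The score was lower in MC2580 in all 5. The ratio of the MC2580 to the DMSO score was 0.378 in RARB, 0.352 in TGM2, and 0.329, 0.951 and 0.674 in RXRA from upstream to downstream. Over all 5449 pairs of the lists in which each peak met only its partner, the ratio had a median of 0.638, quartiles of 0.385 and 0.966, and was below 1 in 76.7%. The 3 pairs with the highest DMSO scores therefore had ratios below the lower quartile of all pairs. The other 2 RXRA pairs lay within the quartiles. An MC2580 peak had to reach the calling threshold, so that a pair with a low DMSO score could not have a low ratio. The quartiles covered pairs of all DMSO scores and from all parts of the genome. Whether the 5 ratios differ from those of pairs with like DMSO scores was not tested. Scores grow with depth, so that a ratio does not separate binding from depth. DMSO peaks with a counterpart had scores from 81.17 to 744.55 (5 peaks, median 354.7) and those without from 53.21 to 486.66 (22 peaks, median 93.425), and these ranges overlapped.

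**Figure D4:**
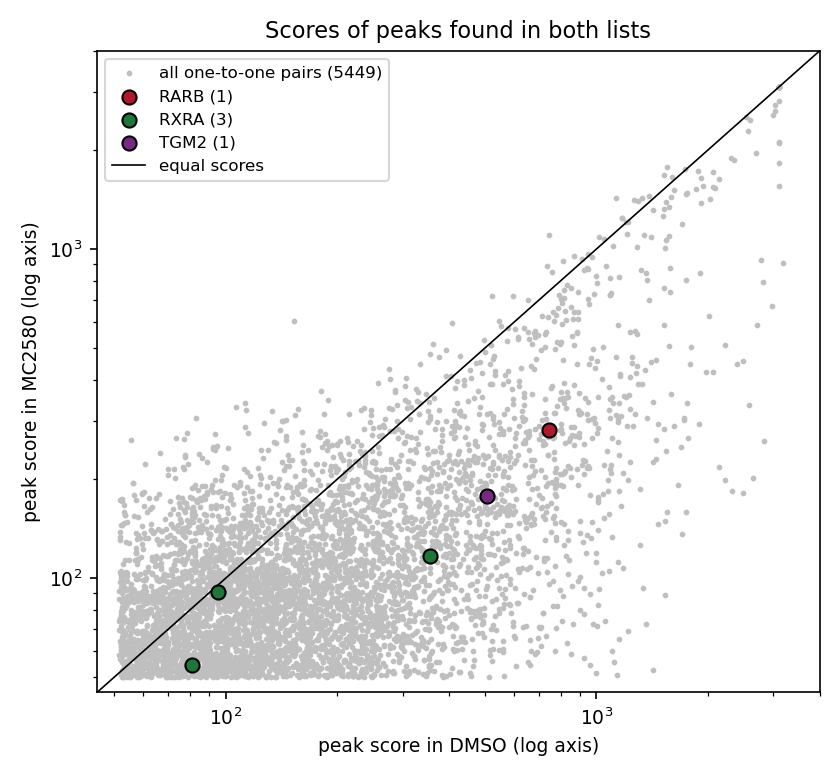
Score in MC2580 (vertical log axis) against score in DMSO (horizontal log axis) for all 5449 pairs of peaks that overlapped only each other (grey) and for the 5 pairs at RARB (red), RXRA (green) and TGM2 (purple). The line marks equal scores, and all 5 coloured points lie below it.

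Base composition and words of the central 300 bases were compared with all peaks of the same list. The 27 DMSO stretches outside the PRAM1 window had a GC content from 36% to 65.3% with a median of 58%, against 48.7% for all DMSO peaks. The 6 MC2580 stretches had a median of 56.9%, against 48%. These peaks were taken from gene windows, with 13 of the 27 DMSO peaks within 3 kb of a TSS. All peaks of a list were not matched to them by position, for GC content or for the words below. AGGTCA, on either strand, was found in 8 of the 27 DMSO stretches, against 21.6% of all, and in 2 of the 6 MC2580 stretches, against 21.1%. Over whole peaks of like width (589 to 1786 bp) it was present in 19 of the 27 DMSO peaks (70.4%), against 54.1% of all, and in 3 of the 6 MC2580 peaks (50%), against 51.2%. The DR5 repeat was in 1 of the 27 stretches (DHRS3), against 0.0935% of all DMSO stretches. DHRS3 is among the textbook receptor targets named above, so that this share is not independent of the choice of genes. Repeats of the same 4 words spaced by 1 base (DR1) or 2 bases (DR2) were in none, against 0.168% and 1.17%.
The PU.1 word GAGGAAGT was in none of the 27 stretches, against 4% of all DMSO stretches, and the RUNX word TGTGGTTT was in 2, against 6.07%. PU.1 and RUNX1 are transcription factors of myeloid cells. One RUNX word lay 64 bp from the centre of the strongest RXRA peak (chr9:134404129-134404136, minus strand), and the other 68 bp from the centre of the RARG peak near ITGB7. Over whole DMSO peaks of like width each word was in 4 of the 27 (14.8%), against 9.21% of all for PU.1 and 12.2% for RUNX, so that PU.1 was under the share of all peaks in the centres and over it in whole peaks. In MC2580 neither word was in the 6 stretches, against 2.62% and 4.2% of all. Over whole MC2580 peaks each was in 1 of the 6 (16.7%), against 6.58% for PU.1 and 10.2% for RUNX. A match describes the letters only, and absence of a word says nothing of the factor.

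In the RefSeq promoter stretches, 7 of the 10 genes matched, with 18 promoters among 35116. PML, TGM2 and PRAM1 were not among them. The DR5 repeat was in 2 of the 18 (RARB and CYP26A1, shown above), against 0.0883% of all promoters, and AGGTCA in 3, against 13.8%. RARB and CYP26A1 are among the textbook receptor targets named above, so that the DR5 share follows the choice of genes. None of the 18 stretches overlapped a peak of either list.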

How the data were processed

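In the study's methods, unique reads with at most 2 mismatches were aligned by the authors to hg38 with Bowtie (4.8.2 in the submitters' processing notes), and peaks were called per condition with MACS 1.4.2 (p threshold 1e-05), with both the input and the EV ChIP as background. How both backgrounds were combined was not given in the sources used here. The deposited unit was the peak score, minus 10 times the log10 of the p-value by the authors' peak caller. Each of the 2 lists was assigned to its condition from its name, and its starts were counted from 1 here. Depth was unknown and inputs and the EV ChIP were not analysed on their own.

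Genes, TSSs and exons came from GENCODE release 44 and bases from hg38. All 79 peak chromosomes were found there. The 10 genes and all lists were chosen with earlier results of these data known. All 10 genes are named. Where a list had up to 5 peaks in a window each was described, otherwise the 3 highest-scoring, the nearest to an own TSS and those within 3 kb of one. Of 40 other retinoid pathway genes, the rule named the 5 with the highest-scoring DMSO peak within 3 kb of a TSS, of which 4 are given and 1 is not reported here. For a count ratio the exact interval came from the binomial (Clopper-Pearson) interval. With 1 library per condition no test was made. Alternatives covered score, width, window, overlap and TSS rules. Interval functions were tested on simulated data. Python 3.11.15, numpy 2.4.6, scipy 1.17.1 and matplotlib 3.10.9 were used.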

Additional observations from a re-analysis of the deposited data

How the results depend on the processing

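Of 56 values under alternative settings, 31 stayed close to the reported ones and 25 moved. A count was taken as moved when it differed by more than 1.5 times. The ratio was taken as moved only outside 0.493 to 1.3, a wide range that spans 1. The numbers of genes with a peak did not move by more than 1.5 times. Extending genes by 10 kb gave 23 DMSO and 11 MC2580 peaks (ratio 0.478), of which 5 and 10 were shared, and extending them by 100 kb gave 67 and 65 peaks, of which 39 and 63 were shared. A minimum score of 100 left 25 DMSO peaks, and 3 and 1 genes with a peak within 3 kb of an own TSS. A distance of 1 kb left 3 and 1 genes, and the canonical TSS alone 2 and 1. Shares of all genes under these alternative TSS rules are not given here. Requiring an overlap of 50% of both peaks left 8 shared peaks in each list. Removing peaks wider than 7875 bp left 17 shared MC2580 peaks. Leaving out PRAM1, chosen after seeing the data, gave 27 and 6 peaks (ratio 0.222), 5 shared in each list, and 1 gene with an MC2580 peak within 3 kb of an own TSS. The ratio of all 10 genes was 1.08 at a score of at least 100, on the other side of 1, and 0.943 when the 13233 highest-scoring DMSO peaks were kept. The cause of these shifts was not tested. No paired analysis was possible because each condition had 1 library, and no replicate could be left out. Depth was unknown, so that a peak absent from a list could not be told from one just under the threshold.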

Other observations

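Beyond the 10 genes, 40 other genes of retinoid biology were counted by the same rule. Of these, 22 (55%) had a DMSO peak in the window and 14 (35%) an MC2580 peak, beside 47.9% and 27.3% of all protein-coding genes. Within 3 kb of an own TSS, 6 genes (15%) had a DMSO peak, beside 16.1% of all genes, and 6 (15%) an MC2580 peak, beside 7.87%. By group, a DMSO peak was found for 5 of 7 corepressors and coactivators (2 in MC2580), 5 of 7 other fusion partners of RARA (3 in MC2580), 6 of 15 genes of retinoic acid synthesis, breakdown and carriage (5 in MC2580), 4 of 5 retinoid-induced genes (3 in MC2580), 1 of 4 genes of PML bodies (0 in MC2580) and 1 of the other 2 retinoid receptors (1 in MC2580).

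By the rule for named genes, DMSO peaks within 3 kb of an own TSS are given for CD38 (325.08, exon 1, chr4:15778600-15780068), ALDH1A2 (293.29, upstream, chr15:58247785-58248977), UBA7 (226.73, chr3:49805142-49806898) and BCOR (77.53, upstream, chrX:40148796-40149767). The BCOR score was below the median of 91.08 over all DMSO peaks, and the other 3 were above it. CD38 is a surface enzyme that retinoic acid induces in myeloid cells, ALDH1A2 makes retinoic acid, UBA7 activates the ubiquitin-like protein ISG15, and BCOR is a corepressor found fused to RARA in rare cases. The CD38, ALDH1A2 and UBA7 peaks overlapped MC2580 peaks, and the highest MC2580 scores within 3 kb of their TSSs were 105.68, 56.43 and 57.98. The BCOR peak had no MC2580 peak over it. The MC2580 score was lower at each of the 3 shared promoters, which were named for their high DMSO scores, a choice that favours this direction. Over all pairs of the lists in which each peak met only its partner, the MC2580 score was lower in 76.7%.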
